A study of Mus musculus with 10 samples.

Results

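The cytochrome P450 genes of mouse intestinal tissue were followed across an ITGB6 transgene and dextran sulfate sodium (DSS). A gene was taken as a member when its symbol had the form of a mouse Cyp gene and at least 2 of the 10 libraries held 10 or more expected counts. Of 76 matching symbols 43 met this, out of 19456 genes listed in any library, and they fell into 18 subfamilies. Of the 33 symbols left out, 30 did not reach 10 counts in any library (highest value 8.02). The members just inside the rule, with 2 such libraries, were Cyp2d40, Cyp2e1, Cyp4f15 and Cyp4f39 (highest counts 12.1, 15.9, 12.2 and 13), and the genes just outside, with 1 such library, were Cyp11a1, Cyp26b1 and Cyp2t4 (10, 12 and 10). All mice were C57BL/6, and no group was given an age or sex in the labels. The 4 groups were untreated wild type (WT, n = 3), untreated ITGB6-overexpressing transgenic (TG, n = 3), WT given 2.5% DSS by mouth (n = 2) and TG given the same DSS (n = 2). ITGB6 is the beta subunit of an epithelial integrin that activates TGF-beta, and oral DSS injures the gut epithelium; the study used it to model intestinal fibrosis. The labels do not say which promoter drives the transgene, which segment of the gut was taken, or whether each library is a separate animal. A p-value here sets a difference against the variation between these libraries, estimated over all 4 groups. Whether that is variation between animals is not known.

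Cytochrome P450 enzymes are haem proteins that insert an oxygen atom into their substrates with electrons passed on by a reductase. Members of the Cyp2c, Cyp2d and Cyp3a subfamilies oxidise drugs, steroids and other foreign compounds, the Cyp4 and Cyp2j subfamilies oxidise fatty acids and eicosanoids, and single-gene subfamilies such as Cyp27a, Cyp51 and Cyp24a handle sterols and vitamin D. In the gut they sit mostly in the absorptive epithelium, and in mouse liver many of them are made at different levels in males and females.

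Before the results, 3 features of the libraries bear on them. The deposited entry for human ITGB6 ranged from 3632 to 3913 CPM (TMM-scaled counts) in untreated TG and 2201 to 2453 CPM in TG after DSS, against 0.117 to 1.13 CPM in the 5 WT libraries. Xist lay at 0 to 0.417 CPM in the 6 libraries without DSS and at 307 to 739 CPM in the 4 with it, while Y-linked Kdm5d ranged from 26.6 to 44.2 CPM without DSS and was at 0 with it, so that DSS and sex cannot be told apart in any comparison of DSS with untreated tissue. Untreated TG library 1 stood apart from its group: its rank correlation with the other two was 0.973 and 0.975, against 0.993 between them, and the leukocyte gene Ptprc read 8.94 CPM there and 56.9 and 79.5 CPM in the others. The Y-linked genes were also lower in that library than in the others of its group. Ddx3y read 14.2 CPM against 43.7 and 43.9, and Uty 7.63 against 23.6 and 19.4. Eif2s3y read 21.4 CPM against 49.1 and 37.3, and Kdm5d 26.6 against 40.8 and 34.4. Depth was 15393859 to 18284704 expected counts per library. The epithelial markers (5 of 5 listed) summed to 9980 to 13700 CPM in every library, while 3 of 4 smooth muscle markers stayed under 1 CPM in all libraries. Of 6 hepatocyte markers Alb, Serpina1a and Fgb were under 1 CPM in all libraries, and the other three reached it (sum of the list 38.0 to 71.0 CPM, mostly Tat and Ttr). Of 8 small intestinal markers Lct and Apoa4 were under 1 CPM in all libraries and 6 reached it (sum 89.1 to 281 CPM, with Apob, Alpi and Slc10a2 the highest).

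The genes on which the genotype results turn are shown first by the 120 bases before their RefSeq start (GRCm38.p6), because they changed in the same direction and 2 of them are near copies of each other. Capitals mark the letters TATAA, read on either strand, the core of the TATA box that positions the start of transcription. The windows are chr4:115647722-115647841 on the minus strand for Cyp4b1, chr15:82452257-82452376 on the plus strand for Cyp2d9, chr15:82407195-82407314 on the minus strand for Cyp2d10 and chr1:74713415-74713534 on the plus strand for Cyp27a1. Those of Cyp4b1 and Cyp2d9 end directly before the annotated gene, and those of Cyp2d10 and Cyp27a1 lie partly or wholly inside a gene span that begins at an earlier start.
Cyp4b1: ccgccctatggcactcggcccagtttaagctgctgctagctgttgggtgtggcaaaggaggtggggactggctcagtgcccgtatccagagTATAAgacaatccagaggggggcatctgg
Cyp2d9: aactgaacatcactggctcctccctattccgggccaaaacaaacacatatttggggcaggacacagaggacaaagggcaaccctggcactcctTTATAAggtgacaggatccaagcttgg
Cyp2d10: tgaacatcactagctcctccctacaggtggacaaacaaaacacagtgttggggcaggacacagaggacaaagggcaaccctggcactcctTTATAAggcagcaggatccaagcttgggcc
Cyp27a1: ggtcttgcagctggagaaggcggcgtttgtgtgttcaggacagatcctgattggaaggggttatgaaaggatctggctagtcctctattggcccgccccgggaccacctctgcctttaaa

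On the strand shown, TATAA began 29 bases before the start in Cyp4b1 and Cyp2d10 and 26 bases before it in Cyp2d9, with the reverse-strand match 1 base earlier in both Cyp2d genes, and the window of Cyp27a1 held none. The 250 bases upstream of Cyp2d9 and Cyp2d10 were 82.8% identical over the aligned columns. Cyp2d11, a neighbour that did not pass the test in any comparison, was as close to Cyp2d9 (82.3%) and somewhat less so to Cyp2d10 (76.7%). RefSeq promoters of 300 bases were found for 34 of the 43 members (40 promoters). TATAA occurred in 17 of these 40 (42.5%) and in 24.9% of all 32851 promoters. The nuclear receptor half-site AGGTCA occurred in 12.5% of the P450 promoters and 16.3% of all, the aryl hydrocarbon receptor core GCGTG in 30% and 32.4%, the HNF4 core CAAAGTCCA in 7.5% and 0.475%, and the D-box TTATGNAA in 5% and 3.38%, each on either strand. The 3 genes with the HNF4 core were Cyp2c65, Cyp2c68 and Cyp2c69, which were singled out after the matches were seen. Such matches describe the letters only.

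A few genes carried most of the P450 message. By FPKM (fragments scaled to transcript length and library size), which allows genes to be compared, Cyp2c55 stood far above the rest with a mean of 682 over the 10 libraries. It is an arachidonic acid hydroxylase of the large bowel. Next came its relative Cyp2c65 (128 FPKM), Cyp2d34 of the Cyp2d cluster (91.0), the fatty acid and leukotriene hydroxylase Cyp4f14 (77.6) and Cyp2s1, a P450 of epithelia (65.9). Cyp4f40 (50.1), the cholesterol synthesis enzyme Cyp51 (40.6) and the intestinal Cyp3a13 (37.5) completed the 8 highest, which held 82.0% of the summed FPKM of the 43 genes. In all 16 members had a mean of 10 FPKM or more, 12 lay between 1 and 10, and 15 were under 1. Cyp4b1 had the widest range, as a ratio, among the 16 highest, from 1.25 to 35.5 FPKM.

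**Figure D1:**
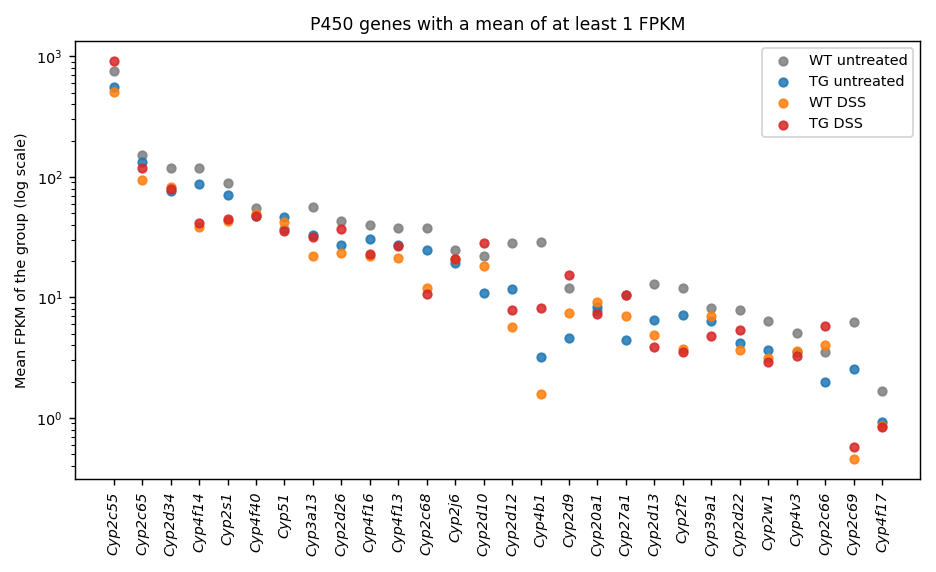
Mean FPKM of each group (vertical log axis) for the P450 genes with a mean of at least 1 FPKM over the 10 libraries, ordered by that mean; each point is the mean of the 2 or 3 libraries of a group. Cyp2c55 lies highest in every group, and the points of Cyp4b1 spread from 1.60 FPKM in WT after DSS to 28.7 FPKM in untreated WT.

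The summed P450 FPKM was 1720, 1643 and 1890 in untreated WT, 1109, 1342 and 1355 in untreated TG, 1323 and 811 in WT after DSS, and 1692 and 1417 in TG after DSS. Every untreated TG library was thus below every untreated WT library, and WT DSS 2 was the lowest of all. Cyp2c55 alone made up 38.1 to 60.8% of this sum. Its CPM was 1477, 1192 and 1678 in untreated WT, 910, 1241 and 1214 in untreated TG, 1387 and 648 in WT after DSS and 2125 and 1741 in TG after DSS. The WT and TG libraries overlapped without DSS, the TG libraries were higher after DSS, and Cyp2c55 passed in no comparison (log2 fold changes from -0.51 to 1.30). Of the other most abundant members, Cyp2c65, Cyp2d34, Cyp4f40 and Cyp51 also passed in none. Cyp4f40 differed least, with log2 fold changes between -0.15 and 0.16. Cyp2c65 was at -0.61 with DSS in WT (adjusted p = 0.0719), where DESeq2 called it (0.0371). Cyp2d34 was at -0.54 in untreated TG (0.101), where DESeq2 called it as well (0.0434).

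In untreated tissue a small set of P450 genes was lower in TG than in WT, and none passed as higher. A gene passed at a Benjamini-Hochberg adjusted p under 0.05 over all 14072 genes tested, by quasi-likelihood in edgeR. By this rule 6 of the 43 members (14.0%) were lower in TG, where 1.44% of all tested genes were lower, and 0 were higher, where 2.26% were (3.7% in either direction). The 6 were Cyp4b1, Cyp2d9, Cyp2d10, Cyp2d13, Cyp27a1 and Cyp4f15. Cyp4f15 met the membership rule only through untreated WT libraries, so its place among the lower genes was favoured by that rule. The median log2 fold change of the members was -0.46, against -0.02 over all tested genes, and 34 of 43 members were below 0. Before adjustment 21 members had p under 0.05. How many of all tested genes had such a p was not counted, here or in the later comparisons. DESeq2 called 11 members, all lower, where it called 438 of all 14072 genes lower and 603 higher. The number called was 3 without untreated WT 2, WT 3 or TG 2, and 4 without WT 1 or TG 3. In bulk tissue such a difference cannot be divided into fewer cells of a type and less RNA per cell. The colonocyte markers (6 of 6 listed) summed to 9069 to 11460 CPM in untreated WT and 5415 to 9139 CPM in untreated TG. The fibroblast markers (5 of 5 listed) summed to 16.3 to 27.8 CPM in WT and 28.4 to 91.4 CPM in TG, and the neutrophil markers (5 of 6 listed, Mpo not) to 61.6 to 78.1 CPM in WT and 28.9 to 39.3 CPM in TG. The neutrophil sum was mostly Ly6g, at means of 62.3 CPM in WT and 29.7 CPM in TG. Cxcr2 averaged 5.39 CPM in WT and 4.55 CPM in TG. S100a8, S100a9 and Csf3r averaged under 1 CPM in both groups, with the higher means in TG. The part of these markers in the result was not tested.

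Cyp4b1, which hydroxylates fatty acids and activates some plant and drug toxins, lies on chromosome 4 (115624698 to 115647721, GRCm38; gene ID 13120). It read 64.0, 33.2 and 56.9 CPM in untreated WT and 4.47, 6.79 and 6.89 CPM in untreated TG. Every TG library was far below every WT library. The mean fell from 51.4 ± 16.1 (SD, n = 3) to 6.05 ± 1.37 CPM (n = 3), an 8.49-fold difference (log2 fold change -3.08 ± 0.28 SE, adjusted p = 0.000956). Without untreated TG library 1 the value was -2.91 (adjusted p = 0.00103), and no single library ended the call.

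The remaining 5 genes fell by less or from few counts. Cyp2d9, a steroid hydroxylase known for its high level in male liver, read 17.7, 21.7 and 17.5 CPM in untreated WT and 6.80, 8.09 and 7.94 CPM in untreated TG (log2 fold change -1.32 ± 0.15, adjusted p = 0.00233). Its neighbour Cyp2d10 read 31.7, 37.3 and 38.0 CPM in WT and 18.1, 17.95 and 18.9 CPM in TG (-0.96 ± 0.13, adjusted p = 0.00727). For both genes the groups did not overlap and no left-out library ended the call. Cyp2d13, further along the cluster and annotated as a transcribed pseudogene, read 18.9, 21.3 and 20.5 CPM in WT and 9.90, 9.75 and 12.8 CPM in TG (-0.90 ± 0.17, adjusted p = 0.0205). Cyp27a1, a mitochondrial sterol hydroxylase of bile acid synthesis, read 17.2, 18.8 and 22.3 CPM in WT and 10.7, 7.91 and 7.26 CPM in TG (-1.17 ± 0.20, adjusted p = 0.0167). All TG values of both genes were again below all WT values. Without untreated TG library 1 the log2 fold changes of Cyp2d9, Cyp2d10, Cyp2d13 and Cyp27a1 were -1.24, -0.95, -0.84 and -1.35, and all 4 passed. The call of Cyp2d13 ended without untreated WT 1, 2 or 3 (adjusted p = 0.0619, 0.0907 and 0.085) or TG 2 (0.0765), and that of Cyp27a1 without WT 2 or 3 (0.0609 and 0.0706) or TG 2 or 3 (0.064 and 0.0537). Cyp4f15, a fatty acid hydroxylase gene, had 31 counts in the 3 WT libraries together and 2 in the 3 TG libraries, a 16.3-fold ratio with a 95% exact counting interval of 4.15 to 140.5 (adjusted p = 0.0379). That interval covers counting error only, and the call ended without WT 1 or TG 1, 2 or 3 (adjusted p = 0.0871, 0.0502, 0.105 and 0.0909) and with DESeq2 (0.0542). Without untreated WT 2 or WT 3 Cyp4f15 was under the count filter and was not tested. Cyp51 passed as higher in TG without untreated TG library 1 (0.49, adjusted p = 0.0392, against 0.39 and 0.134 with it) and in no other fit; it was singled out after its values were seen. Its CPM was 167, 139 and 165 in WT and 175, 243 and 199 in TG.

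**Figure D2:**
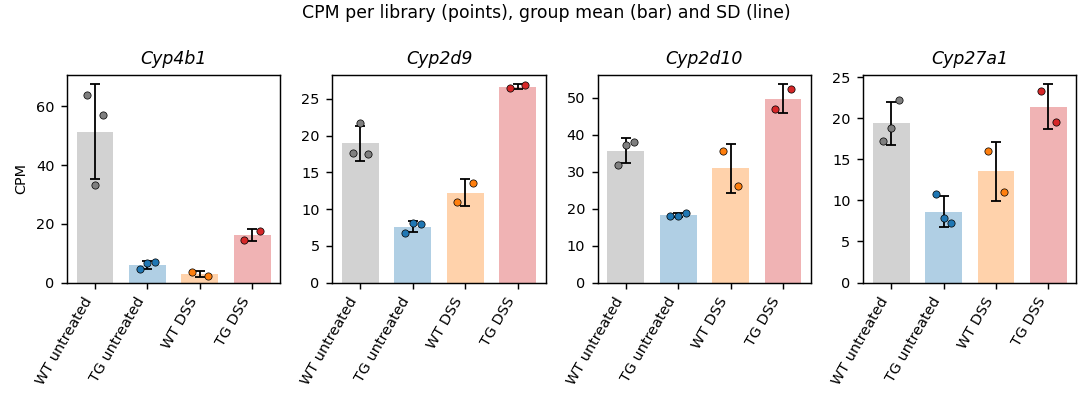
CPM of Cyp4b1, Cyp2d9, Cyp2d10 and Cyp27a1, the 4 P450 genes that passed the test for a genotype difference that changes with DSS; points are libraries, bars are group means and lines the SD (n = 3 without DSS, n = 2 with it). In each panel the untreated TG bar lies below the untreated WT bar and the TG bar lies above the WT bar after DSS, for Cyp4b1 at 16.1 against 2.995 CPM.

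After DSS the difference of the genes that passed lay the other way. Of the 43 members 2 were higher in TG than in WT (4.65%, where 0.178% of all tested genes were higher), and 0 were lower (0.00711%; 0.185% in either direction). DESeq2 called 3 members, all higher, where it called 197 of all 14072 genes higher and 61 lower. The median log2 fold change of the 43 members was 0.17, against -0.01 over all tested genes, 28 members were above 0, and 9 had p under 0.05 before adjustment. This median depended on the WT DSS libraries. It was 0.04 without WT DSS 2, with 23 members above 0 and 20 below, and 0.68 without WT DSS 1. Cyp4b1 read 3.72 and 2.27 CPM in WT and 14.7 and 17.6 CPM in TG, 5.39-fold higher in TG (2.43 ± 0.36, adjusted p = 0.0374). Cyp2d9 read 10.9 and 13.6 CPM in WT and 26.4 and 26.9 CPM in TG (1.12 ± 0.17, adjusted p = 0.0399). Neither gene's libraries overlapped, yet both calls were fragile with 2 libraries a group. They ended with total count scaling (adjusted p = 0.0587 for Cyp4b1 and 0.0899 for Cyp2d9), in a fit of the DSS libraries alone (0.0575 and 0.14) and with limma on log2(FPKM + 1) (0.0631 and 0.0677) or log2(FPKM + 0.1) (0.0605 and 0.0781). Without a library, Cyp4b1 lost the call without untreated WT 1 or 3 (0.0837 and 0.0909), untreated TG 2 or 3 (0.0749 and 0.0676), WT DSS 2 (0.143) or TG DSS 1 or 2 (0.16 and 0.231). Cyp2d9 lost it without any library but untreated TG 1 (0.0586 to 0.252). All 4 DSS libraries read as female by Xist and Kdm5d. The colonocyte marker sum was 3911 to 6315 CPM in WT and 7916 to 10110 CPM in TG after DSS, and the neutrophil marker sum was 136 to 144 CPM in WT and 184 to 252 CPM in TG. Ly6g made up most of the neutrophil sum, at means of 111.7 CPM in WT and 197.1 CPM in TG. The other listed neutrophil markers had lower means in TG than in WT: S100a8 (3.66 against 5.42 CPM), S100a9 (5.80 against 9.56), Csf3r (4.39 against 4.88) and Cxcr2 (6.97 against 8.6). The part of these markers was not tested.

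The change of the genotype difference with DSS was tested directly as an interaction. The log2 difference between TG and WT was larger after DSS than without it for 4 members (9.30%, where 0.526% of all tested genes passed in that direction) and smaller for 0 (0.32%; 0.846% in either direction). These were Cyp4b1 (5.52 ± 0.46, adjusted p = 0.000879), Cyp2d9 (2.44 ± 0.23, adjusted p = 0.00161), Cyp2d10 (1.65 ± 0.21, adjusted p = 0.00776) and Cyp27a1 (1.83 ± 0.31, adjusted p = 0.0299). For Cyp4b1 this is a 45.7-fold change in the ratio of TG to WT. The median over the members was 0.53, against 0.00 over all tested genes, 35 of 43 were above 0, and 21 had p under 0.05 before adjustment. By sign alone, 23 members were lower in TG without DSS and higher after it, and 11 were lower in both. Another 5 were higher in both, and 4 were higher without DSS and lower after it. How many of all tested genes had each sign pattern was not counted, and the signs after DSS depended on the WT DSS libraries. The interaction of Cyp4b1 and Cyp2d9 passed without each library in turn, at 5.34 and 2.36 without untreated TG library 1. That of Cyp2d10 ended without TG DSS 2 (adjusted p = 0.0516), and that of Cyp27a1 ended without any library other than untreated TG 1 and WT DSS 1 (0.0631 to 0.169). The number called was 9 without WT DSS 1 and 2 without TG DSS 2. DESeq2 called 8 members, all higher, where it called 241 of all 14072 genes higher and 189 lower. To the 4 genes above it added Cyp2c55 (1.29), Cyp2d12 (1.73), Cyp2d22 (1.43) and Cyp3a13 (1.27).

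**Figure D3:**
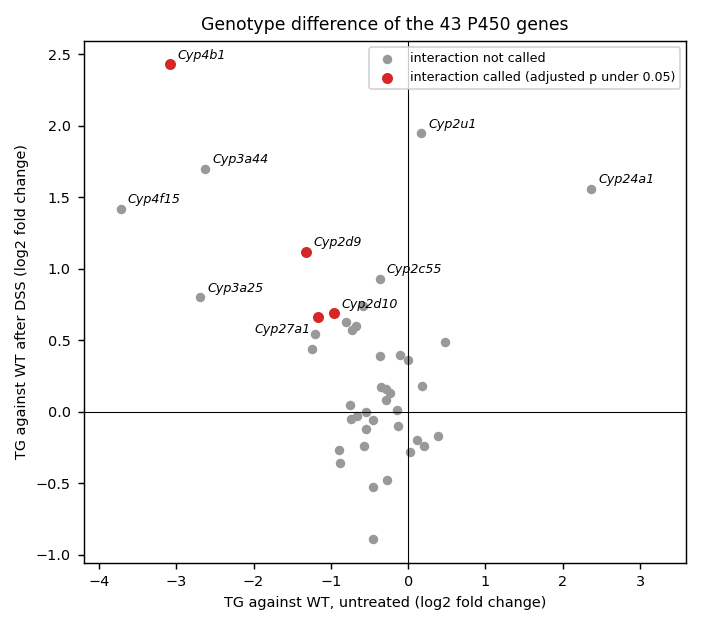
Log2 fold change of TG against WT without DSS (horizontal) and after DSS (vertical) for each of the 43 P450 genes; red points passed the interaction test. Most points lie to the left of 0 and 23 lie in the upper left part, with Cyp4b1 at -3.08 and 2.43. The share of all tested genes in that part was not counted. Cyp4f15, Cyp3a25 and Cyp3a44 had few counts.

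Many P450 genes were lower in WT after DSS, with 15 of 43 lower (34.9%, where 9.62% of all tested genes were lower) and 0 higher (10.2%; 19.8% in either direction). The comparison is one of DSS females with untreated males. The median log2 fold change of the members was -0.62, against 0.00 over all tested genes, 33 were below 0 and 23 had p under 0.05 before adjustment. DESeq2 called 18 members, all lower, where it called 1534 of all 14072 genes lower and 1678 higher. By role, 8 of 20 genes of drug and xenobiotic oxidation (the pseudogene Cyp2d13 among them), 6 of 15 of fatty acid and eicosanoid oxidation, and Cyp2s1 of the 3 with less settled substrates were lower. None of the 3 sterol genes and neither vitamin D gene passed. The colonocyte marker sum was 9069 to 11460 CPM without and 3911 to 6315 CPM with DSS, and the neutrophil markers (5 of 6 listed, Mpo not) stood at 61.6 to 78.1 CPM without and 136 to 144 CPM with DSS. Their part in the result was not tested.

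Among the genes that passed, the 6 largest falls in WT were those of Cyp4f15, Cyp4b1, Cyp2c69, Cyp2u1, Cyp2d12 and Cyp2f2. Cyp4b1 went from 51.4 ± 16.1 (n = 3) to 2.995 ± 1.03 CPM (n = 2), a 17.2-fold fall (-4.10 ± 0.36, adjusted p = 0.000128). Cyp2c69 read 10.9, 8.99 and 12 CPM without DSS and 1.30 and 0.324 CPM with it (-3.72 ± 0.49, adjusted p = 0.00111). Cyp2d12 read 36.5, 52.5 and 43 CPM without and 10.9 and 7.399 CPM with DSS (-2.26 ± 0.35, adjusted p = 0.00269). No left-out library ended these 3 calls, and no libraries of the compared groups overlapped. Cyp4f15 had 31 counts in the untreated and 1 in the DSS libraries, a 22.9-fold ratio (95% exact counting interval 3.81 to 931.5, adjusted p = 0.0187). Its call ended without WT DSS 2 and with DESeq2 (adjusted p = 0.0502), and it was not tested without untreated WT 2 or WT 3. Cyp4f15 met the membership rule only through untreated WT libraries, so its place among the falls was favoured by that rule. Cyp2u1, a fatty acid hydroxylase at 0.714 to 1.35 CPM without and 0.118 and 0.216 CPM with DSS, fell by 2.43 ± 0.59 on the log2 scale (adjusted p = 0.0187) but not without untreated WT 3 (0.0559), WT DSS 1 (0.0868) or WT DSS 2 (0.0832). Cyp2f2, known for activating naphthalene in the airway, read 21.5, 19.9 and 21.6 CPM without and 11.4 and 2.65 CPM with DSS (-1.59 ± 0.49, adjusted p = 0.0461), and the call ended without any of 8 libraries (0.0571 to 0.192).

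Abundant genes fell as well. Cyp4f14 read 233, 252 and 246 CPM in untreated WT and 90.2 and 76.8 CPM after DSS (-1.55 ± 0.14, adjusted p = 0.000131), and it passed in every fit without a library. Cyp3a13, the main Cyp3a gene of these samples, read 155, 161 and 161 CPM without and 80.6 and 51.1 CPM with DSS (-1.27 ± 0.25, adjusted p = 0.00744). Cyp2s1 read 209, 253 and 211 CPM without and 132 and 96.9 CPM with DSS (-0.97 ± 0.17, adjusted p = 0.00502). The calls of Cyp3a13 and Cyp2s1 ended without WT DSS 2 (0.0666 and 0.0531), the library with the lowest P450 sum. The other 6 that passed were Cyp2c68, Cyp2d13, Cyp2d22, Cyp4f16, Cyp4f13 and Cyp2d9, with falls from 1.58 down to 0.63 on the log2 scale. Of these Cyp2d13 (-1.33) and Cyp4f16 (-0.79) passed without each library in turn. The others lost the call most clearly without WT DSS 2 (adjusted p = 0.128 for Cyp2c68, 0.166 for Cyp2d22 and 0.225 for Cyp4f13) or, for Cyp2d9, without WT DSS 1 (0.107). The number called in WT was 7 without WT DSS 2, 9 without untreated WT 3, and 19 without WT DSS 1 or untreated TG 1.

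In TG the members moved in both directions with DSS. Of 43, 6 were higher (14.0%, where 3.33% of all tested genes were) and 2 were lower (4.65%, where 2.15% were, or 5.48% in either direction), in what is again a comparison of females with males. The median was 0.01 for the members and for all tested genes, with 22 above 0, and it was -0.05 with total count scaling. Before adjustment 15 members had p under 0.05. DESeq2 called 13 members, 7 higher and 6 lower, where it called 669 of all 14072 genes higher and 575 lower. Cyp2d9 rose from 6.80, 8.09 and 7.94 to 26.4 and 26.9 CPM, a 3.50-fold rise (1.81 ± 0.16, adjusted p = 0.000198). Cyp2d10 rose from 18.1, 17.95 and 18.9 to 47.1 and 52.5 CPM (1.44 ± 0.15, adjusted p = 0.000517). Both passed without each library in turn and their libraries did not overlap. In WT after DSS, by contrast, Cyp2d9 had fallen (-0.63 ± 0.16) and Cyp2d10 read 35.6 and 26.3 CPM, within its untreated spread at one library and below it at the other.

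Cyp4b1 rose in TG from 6.05 ± 1.37 (n = 3) to 16.1 ± 2.06 CPM (n = 2), 2.66-fold (1.41 ± 0.30, adjusted p = 0.0235), so that TG after DSS still lay under every untreated WT library. The call ended without untreated TG 2 or 3 (0.056 and 0.0585) or TG DSS 1 or 2 (0.089 and 0.193). Cyp27a1 rose from 10.7, 7.91 and 7.26 to 23.3 and 19.5 CPM (1.31 ± 0.22, adjusted p = 0.00723) but not without TG DSS 1 (0.077). Cyp2c66 read 3.04, 2.24 and 4.53 CPM without and 12.1 and 7.61 CPM with DSS (1.59 ± 0.37, adjusted p = 0.0329), and 5 libraries ended its call when left out (0.0528 to 0.248). Cyp3a25 had 4 counts in the untreated and 71 in the DSS libraries (4.58 ± 0.75, adjusted p = 0.00667), a value that rests on those 4 counts and was not called without TG DSS 1 (0.057). The falls were those of Cyp2c69, from 2.74, 5.73 and 5.03 to 0.938 and 1.23 CPM (-2.05 ± 0.47, adjusted p = 0.0329), and Cyp4f14, from 177, 183 and 212 to 85.02 and 103 CPM (-1.02 ± 0.13, adjusted p = 0.00215). Cyp4f14 passed without each library in turn, while Cyp2c69 lost its call without any of 7 libraries (0.0514 to 0.222). Without untreated TG library 1 all 8 passed, and Cyp4b1 was at 1.23 (adjusted p = 0.0288). The number called in TG was 3 without TG DSS 1, 5 without TG DSS 2 and 12 without either WT DSS library. The neutrophil marker sum was 28.9 to 39.3 CPM in untreated TG and 184 to 252 CPM in TG after DSS, and its part was not tested.

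**Figure D4:**
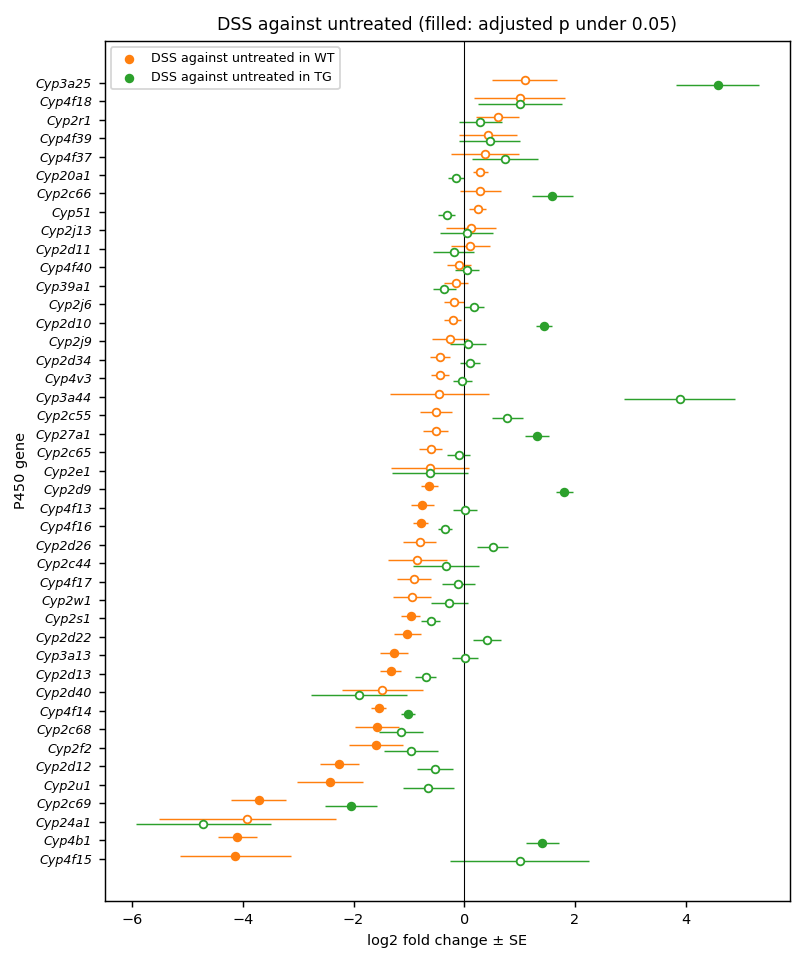
Log2 fold change of DSS against untreated tissue (horizontal, with SE) for the 43 P450 genes in WT (orange) and TG (green), ordered by the WT value; filled points passed the test. The WT points run from -4.14 (Cyp4f15) to 1.09 (Cyp3a25) with 15 filled points all below 0, and the filled TG points lie on both sides of 0.

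Cyp24a1, the enzyme that inactivates vitamin D, passed in no comparison and varied widely within groups. It read 0.117, 3.27 and 0.738 CPM in untreated WT, 10.8, 2.01 and 8.62 CPM in untreated TG, 0 and 0.162 CPM in WT after DSS and 0.234 and 0.293 CPM in TG after DSS. Its log2 fold change with DSS in TG was -4.72 (adjusted p = 0.0521), and DESeq2 called it (0.0123). Cyp2r1, which makes the circulating form of vitamin D, ranged from 0.763 to 2.07 CPM. Cyp39a1, an oxysterol hydroxylase, lay between 14.2 and 25.9 CPM in all libraries.

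The Cyp2d subfamily had the most members called, but it was also the largest together with Cyp4f, at 9 members each. Several of its genes share sequence, as given below, so their calls are not independent of each other. All 9 lie on chromosome 15 between 82370527 and 82794452, a span of 423.9 kb, and all 9 matching symbols were members. Without DSS 3 were lower in TG, where 1.44% of all tested genes were, and 8 of 9 had a log2 fold change below 0 (range -1.32 to 0.11). After DSS 1 was higher in TG (range -0.89 to 1.12), where 0.178% of all tested genes were. With DSS 4 fell in WT, namely Cyp2d12, Cyp2d13, Cyp2d22 and Cyp2d9, where 9.62% of all tested genes fell. The Cyp4f subfamily also had 4 falls there. In TG 2 rose with DSS, where 3.33% of all tested genes rose. Cyp2d9 and Cyp2d10 passed the interaction test (2.44 ± 0.23 and 1.65 ± 0.21), where 0.526% of all tested genes passed in that direction. Cyp2d12 did not pass (1.74 ± 0.47, adjusted p = 0.143), but its value was near that of Cyp2d10, and DESeq2 called it (1.73, adjusted p = 0.0153). Cyp2d11, at 0.997 to 2.01 CPM, had an interaction value of -0.30 ± 0.52. The most abundant of the cluster, Cyp2d34, read 169, 194 and 185 CPM in untreated WT and 111, 113 and 152 CPM in untreated TG, which did not pass (-0.54, adjusted p = 0.101).

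**Figure D5:**
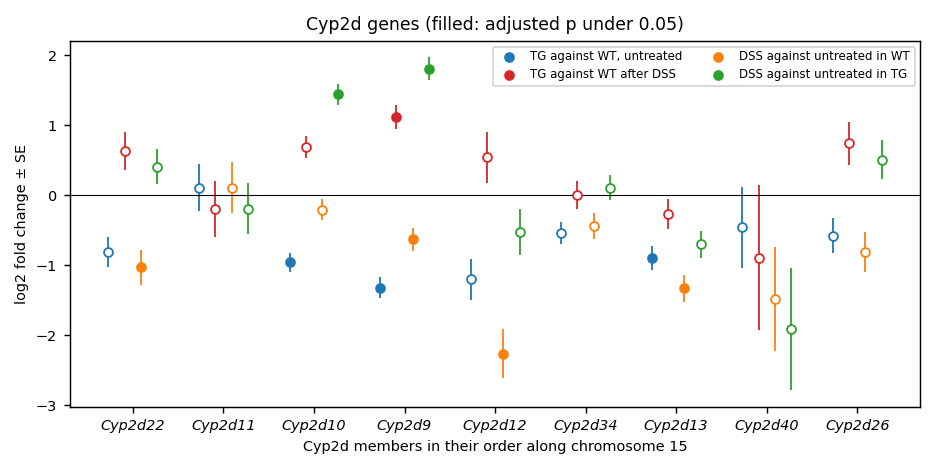
Log2 fold change with SE of the 9 Cyp2d genes in their order along chromosome 15, for both genotype comparisons and both DSS comparisons; filled points passed the test. Cyp2d9 and Cyp2d10 have filled points below 0 for TG against WT without DSS (-1.32 and -0.96) and filled points above 0 for DSS in TG (1.81 and 1.44).

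Of the 9 Cyp4f genes, whose products hydroxylate leukotrienes and other fatty acids, 8 lie within 494.7 kb of chromosome 17 and Cyp4f18 lies on chromosome 8. Cyp4f13, Cyp4f14, Cyp4f15 and Cyp4f16 fell with DSS in WT, and their log2 fold changes were -0.76, -1.55, -4.14 and -0.79. In TG only Cyp4f14 fell, and the others read 0.01, 1 and -0.35. Cyp4f18, a form of white blood cells, read 0.119 to 1.93 CPM and passed in no comparison. Of the 6 Cyp2c genes on chromosome 19, Cyp2c68 and Cyp2c69 fell with DSS in WT, and in TG Cyp2c69 fell and Cyp2c66 rose. None of the 6 passed between genotypes, and all 6 had a value below 0 in untreated tissue (-1.24 to -0.11). The 3 Cyp3a genes differed in level: Cyp3a13 was at 51.1 CPM or more in every library, and Cyp3a25 and Cyp3a44, forms better known from liver, did not pass 2.46 CPM in any. None of the 3 Cyp2j genes, epoxidases of arachidonic acid, passed in any comparison. Cyp2j6, the highest of them in CPM, read 57.9 to 97.2 CPM.

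The counts of several members depend on how reads were divided between near copies. In the GENCODE transcripts, 54.8% of the windows of 50 bases in Cyp2c69 also occurred in a transcript of another gene, 43.3% in Cyp2c68, 40.5% in Cyp2d10, 37.2% in Cyp2d11 and 29% in Cyp2d9. Values for these genes are therefore uncertain between members of a subfamily. The partners of Cyp2d9 were Cyp2d12, Cyp2d10 and Cyp2d11. Cyp4b1 shared 10.3% of its windows, with the pseudogenes Cyp4b1-ps1 and Cyp4b1-ps2, and Cyp27a1 and Cyp3a13 shared 0.

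The pattern of Cyp4b1 over the 10 libraries (log2 CPM) was most like that of Man1c1 (Pearson r = 0.97), Fmo5 (0.969), Fmo4 (0.966), Slc22a4 (0.942), Ttc39c (0.931) and Wnt8b (0.926) among 14072 genes. The 10 points share the group structure, so these values describe likeness only. Fmo5 and Fmo4 are flavin monooxygenases, another family of drug-oxidising enzymes. Fmo5 read 84.2, 78.4 and 83.7 CPM in untreated WT, 34.3, 39.7 and 47.0 CPM in untreated TG, 27.3 and 21.4 CPM in WT after DSS and 60.1 and 52.7 CPM in TG after DSS. Its groups did not overlap and stood in the order of those of Cyp4b1. Among the P450 genes Cyp3a13 (0.885), Cyp2d22 (0.884) and Cyp4f15 (0.86) were the most alike. Cyp3a13 read 155, 161 and 161 CPM in untreated WT, 67.3, 115 and 115 CPM in untreated TG, 80.6 and 51.1 CPM in WT after DSS and 101.5 and 98.4 CPM in TG after DSS, so that its 2 TG groups overlapped.

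The genes around the P450 system were read from 5 lists; the shares of all tested genes given above (9.62% lower and 10.2% higher with DSS in WT) are the background for their counts. Of 9 tested electron donors, 2 fell with DSS in WT, Por, the reductase of microsomal P450s (-0.63 ± 0.13, adjusted p = 0.0113), and Fdxr, which serves the mitochondrial ones (-0.48 ± 0.14, adjusted p = 0.0405), and none passed in another comparison. Por averaged 207 ± 4.23 CPM (n = 3) in untreated WT, 199.8 ± 19.3 (n = 3) in untreated TG, 134 ± 16.7 (n = 2) in WT after DSS and 231 ± 33.9 (n = 2) in TG after DSS. Of 17 tested receptors that sense foreign compounds and lipids, 5 fell with DSS in WT: Nr1i3, the drug sensor CAR (-1.79), Ppara (-1.18), Vdr (-0.93), Rxra (-0.61) and Ahr (-0.51). Only Nr1i3 passed between genotypes, lower in untreated TG (-1.49 ± 0.32, adjusted p = 0.0316), at 3.67 ± 1.19 CPM in WT and 1.30 ± 0.165 CPM in TG (n = 3 each). No receptor passed in the DSS comparison of TG or in the interaction. Of 12 haem genes Alad alone passed, higher with DSS in WT (0.44) and TG (0.60).

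Of 6 tested targets of the aryl hydrocarbon receptor outside the P450 family, Gsta1 was lower in untreated TG (-0.62) and higher with DSS in WT (0.50) and TG (1.37), while Ugt1a6a (-1.27), Ugt1a6b (-0.58) and Nqo1 (-0.51) fell with DSS in WT. Of 9 tested epoxide hydrolase and retinoid genes, Aldh1a1 and Rbp2 had the same signs as Cyp4b1 in the comparisons in which they passed. Aldh1a1, which makes retinoic acid, averaged 348 ± 25.0 CPM in untreated WT, 215 ± 34.1 in untreated TG, 109 ± 10.6 in WT after DSS and 236 ± 33.1 in TG after DSS. It passed between genotypes without DSS (-0.69) and after it (1.11), with DSS in WT (-1.67) and in the interaction (1.81 ± 0.22, adjusted p = 0.00588). Rbp2, the retinol-binding protein of the absorptive epithelium, passed in untreated TG (-0.90), with DSS in WT (-1.88) and in the interaction (1.89 ± 0.31, adjusted p = 0.0269). Aldh1a3 rose with DSS in both genotypes (4.77 and 4.97), Rdh10 rose in TG (0.62) and Ephx1 fell in WT (-0.64). The comparison of untreated genotypes and that of DSS in WT share the untreated WT libraries, so their values are set side by side only.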

How the data were processed

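Poly-A RNA of intestinal tissue was sequenced on a BGISEQ-500, per the labels' protocols. The submitters' processing notes list RSEM 1.2.12, Bowtie2 2.2.5, HISAT2 2.0.4 and the build mm10, with no role or order. Per the file headers, each of the 10 deposited tables gives expected counts (estimated counts that need not be whole), FPKM and gene length in bases. Genes were listed at an FPKM of 0.01 or more, and unlisted genes were taken as 0.

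Expected counts were rounded, filtered (filterByExpr, minimum 10, total 15; 14072 genes kept, all 43 members among them) and scaled by TMM. An edgeR 4.0.16 quasi-likelihood model (R 4.3.3) had 1 mean per group over all 10 libraries, 6 residual degrees of freedom and a biological coefficient of variation of 0.171. The 5 comparisons were adjusted by Benjamini-Hochberg over all tested genes (threshold 0.05). Standard errors are the log2 fold change over the root of F. CPM is TMM-scaled. Coordinates and promoters are from RefSeq GRCm38.p6.

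Named are Cyp4b1, members passing between genotypes or in the interaction, the 8 highest by FPKM, the 6 largest rises and falls with DSS, the 6 genes and 3 members most like Cyp4b1, and up to 4 passing genes per list and comparison. The members and lists were chosen with earlier results of these data known, and the TATAA letters after viewing promoters. Alternatives were DESeq2 1.42.0, 2 other scalings, no filter, the compared groups alone, the replicate number as a block, limma 3.58.1 on log2 FPKM (pseudocount 1 or 0.1) and each library left out.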

Additional observations from a re-analysis of the deposited data

Results flagged for a closer look

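Cyp4b1, Cyp2d9, Cyp2d10 and Cyp27a1 are listed because their difference between TG and WT changed with DSS by the edgeR interaction test, by 5.52, 2.44, 1.65 and 1.83 on the log2 scale (adjusted p = 0.000879, 0.00161, 0.00776 and 0.0299). For each gene all 3 untreated TG libraries were below all 3 untreated WT libraries. Both TG libraries were above both WT libraries after DSS. The difference after DSS passed for Cyp4b1 and Cyp2d9 in the model of all 10 libraries, and for none of the P450 genes in a fit of the 4 DSS libraries alone. The untreated libraries were male and the DSS libraries female by Xist and Kdm5d, so that a change of the genotype difference with DSS cannot be told apart from one with sex.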

How the results depend on the processing

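None of the 35 calls of single P450 genes changed direction under another setting. Of 276 values from other settings 254 kept the call and 22 lost it, of 346 values without a library 264 kept it and 82 lost it, and 14 of the 35 calls passed throughout. The number of P450 genes lower in untreated TG was 11 with DESeq2 and 11 with limma on log2(FPKM + 1), and 3 to 8 without a library. After DSS it was 0 with total count scaling, in the DSS libraries alone, with the replicate block and with both limma fits, and 0 to 3 without a library. With DSS it was 7 to 19 in WT and 3 to 12 in TG without a library, and 13 in TG with DESeq2. The interaction gave 8 with DESeq2 and 2 to 9 without a library, and a fit of the compared groups alone was not run for it.

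Over all genes, DESeq2 called 1041 (TG without DSS), 258 (TG after DSS), 1244 (DSS in TG) and 430 (interaction), against 520, 26, 771 and 119 by edgeR. TG against WT after DSS gave 7 with total count scaling, 8 in the DSS libraries alone, 10 with limma at a pseudocount of 1 and 8 at 0.1, and DSS in TG gave 395 in the compared groups alone. Without a library the ranges were 58 to 730, 4 to 145, 970 to 4112 (DSS in WT), 173 to 1677 and 24 to 424. The split of higher and lower genes moved from 318 and 202 in untreated TG to 235 and 382 with total count scaling, which put the median gene at -0.10, and from 1434 and 1354 with DSS in WT to 1146 and 1700; with limma it was 255 and 417 (pseudocount 1) in untreated TG. The P450 genes called in untreated TG were lower in each of these.

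No clear pairing of the samples by replicate number was seen. Over 13 pairs with the same number, r of the deviations from the group means ran from -0.29 to 0.206. Only 2 were over 0.1, the pairs of WT and TG DSS libraries at 0.206 each. In a group of 2 libraries the deviations mirror each other, so these values are not independent and cannot exclude a pairing. With the replicate block P450 calls numbered 4, 0, 13, 5 and 3 in the 5 comparisons and all genes 166, 7, 1614, 356 and 41. The block ended 10 calls of single genes: Cyp2d13 (adjusted p = 0.0536) and Cyp4f15 (0.094) in untreated TG, Cyp4b1 and Cyp2d9 after DSS (0.0847 each), Cyp2u1 (0.055) and Cyp4f15 (0.058) with DSS in WT, Cyp4b1 (0.0555), Cyp2c66 (0.063) and Cyp2c69 (0.114) with DSS in TG, and the interaction of Cyp27a1 (0.0665). Lowering the membership rule to 1 count in 1 library gave 73 genes. With 2 libraries after DSS and counts of 4 or fewer for Cyp4f15 and Cyp3a25 in some groups, a difference that did not pass may be beyond this depth.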
